A study of Canis lupus familiaris with 12 samples.

Results

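The genes of fibronectin and of matricellular and basement membrane glycoproteins were followed, 10 in all: FN1, FBLN1, TGFBI, TNC, THBS1, SPARC, NID1, HSPG2, AGRN and VCAN. The members were taken by name, as every probe set that the platform annotation gives to exactly 1 of these symbols. That rule found 26 probe sets for all 10 genes, out of 29254 probe sets that name a single gene and 15115 genes in all. Of these genes, 8 had several probe sets, and TGFBI and TNC had 1 each.

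RNA came from MDCK II tet-off cells. MDCK (Madin-Darby Canine Kidney) is an established epithelial line of the dog kidney tubule, here kept in serum-containing medium with G418 in every culture. The control group, 2D, was grown as flat sheets in collagen I culture (6 arrays), and the other group, 3D, was grown as cysts within collagen I gels (6 arrays). Both were collected on day 8 by digesting the gel with collagenase, and each one-colour Affymetrix array received RNA pooled from 4 samples. Because the labels do not say how the pools were drawn, p-values measure the spread between pools and may leave out that between single cultures.

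Fibronectin is a large secreted dimer that cells pull into fibrils through integrins, and it forms a provisional matrix in wounded and developing epithelia. Matricellular proteins such as thrombospondin 1, SPARC and tenascin C are secreted into the matrix but mainly adjust how cells hold to it, instead of bearing load. Nidogen, perlecan and agrin belong to the basement membrane, the thin sheet on which kidney tubule cells rest, where nidogen and perlecan join the laminin and collagen IV networks and agrin ties laminin to the cell surface.

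Values are log2(intensity + 1) throughout, and a change is the 3D mean minus the 2D mean on that scale, with its standard error (SE) from limma, a linear model fitted to all 42924 probe sets. A probe set was called where its Benjamini-Hochberg adjusted p was under 0.05. The control level is the 95th percentile of 59 control probe sets that match no dog gene, 5.71 on average over the arrays. Where a gene had several probe sets, the one with the highest mean stands for it, and the others are lettered after it by decreasing mean, so that FN1 A is the representative and FN1 B the next. Levels of different probe sets are not comparable, since probes differ in how strongly they bind.

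The arrays separated by culture on the first principal component (66.0% of the variance), and 2D replicate 6 and 3D replicate 2 lay farthest out on the second (9.49%). RNA integrity was read from the 5-prime to 3-prime signal ratio of the controls for actin and GAPDH. On the log2 scale this ratio averaged -0.91 ± 0.14 (SD, n = 6) in 2D and -0.54 ± 0.17 (SD, n = 6) in 3D, a difference with an exact two-sided permutation p of 0.00866. It moves with every difference described here, and a fit that holds this RNA ratio as a covariate is therefore given beside the members that changed. The 6 measured epithelial markers were above the control level on all 12 arrays, and 4 rose and 1 fell. CDH1, KRT8, MUC1 and KRT18 rose by 1.02, 0.64, 0.22 and 0.18, and TJP1 fell by 0.19. On CDH1 the groups overlapped (SE of the change 0.20), with 6.23 to 7.11 in 2D and 6.65 to 8.13 in 3D. EPCAM had 13.41 ± 0.10 in the 2D and 13.38 ± 0.05 in the 3D arrays, and the keratin KRT18 had 13.23 ± 0.06 and 13.41 ± 0.04 (SD, n = 6). Of 8 fibroblast markers, 0 rose and 2 fell (DCN and COL1A1), and their summed intensity ranged from 486 to 569 over the 2D arrays and from 460 to 506 over the 3D arrays. Of the fibroblast markers COL3A1, THY1 and PDGFRB were above the control level on all 12 arrays, with means of 6.64, 6.55 and 6.24 in 2D and 6.52, 6.48 and 6.11 in 3D. PDGFRA had 5.66 ± 0.12 in the 2D and 5.58 ± 0.07 in the 3D arrays (SD, n = 6), both below the average control level. Of 5 endothelial markers 0 rose and 2 fell, and of 4 leukocyte markers 1 rose (CD14, by 0.43, SE 0.06) and 2 fell. On all 12 arrays, 3 of the endothelial and all 4 of the leukocyte markers were above the control level. Among all genes 19.8% rose and 22.9% fell.

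In 3D, 5 of the 10 members rose (FN1, TGFBI, FBLN1, HSPG2 and THBS1) and 0 fell, by limma with adjusted p under 0.05. At an unadjusted p under 0.05, 0 of the 10 fell as well. Among all 15115 genes 19.8% rose and 22.9% fell. The median change of the 10 members was 0.14, and that of all genes was -0.05. Counted by probe set, 10 of the 26 rose and 0 fell, where 16.7% of all probe sets rose and 22.0% fell. In 4 members, FN1, FBLN1, TGFBI and HSPG2, the lowest 3D array lay above the highest 2D array, and groups were apart in this way, in either direction, in 22.6% of all genes. FN1 and TGFBI rose at least 2-fold, as did 1.85% of all genes. In RNA of whole cultures, more cells making a transcript and more of it per cell cannot be told apart.

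**Figure D1:**
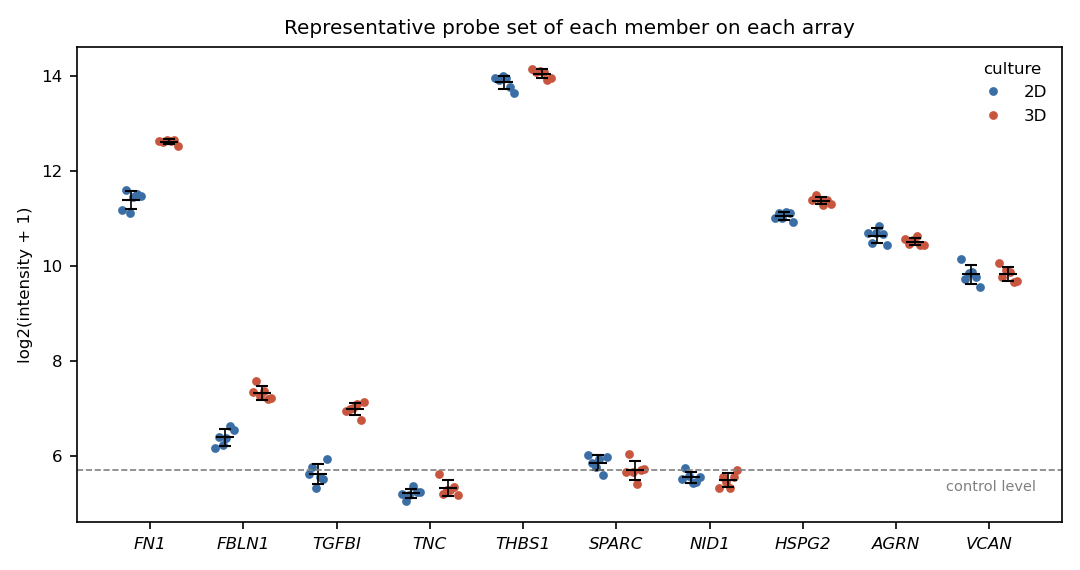
Log2(intensity + 1) of the representative probe set of each of the 10 members (x axis) on the 6 arrays of 2D (blue) and the 6 of 3D (red), with the mean and SD in black and the average control level, 5.71, as a dashed line. FN1, FBLN1, TGFBI and HSPG2 show no overlap between the groups, while TNC, SPARC and NID1 lie near the control level in both; heights of different genes are not comparable.

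Fibronectin showed the rise on all of its probe sets. The representative, FN1 A, ranged in 2D from 11.11 to 11.59 with a median of 11.46, and in 3D from 12.52 to 12.66 with a median of 12.62. Every 3D array was therefore above every 2D array, with an SD of 0.05 among the 3D arrays and of 0.19 among the 2D arrays. FN1 rose by 1.23 (SE 0.07, limma adjusted p = 2.36e-09), a fold of 2.35. In the fit with the RNA ratio the change was 1.35 (SE 0.12, limma adjusted p = 8.76e-07).

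The other FN1 probe sets rose more. FN1 B went from 8.76 ± 0.16 to 10.55 ± 0.19, FN1 C from 7.99 ± 0.27 to 9.77 ± 0.15 and FN1 D from 8.03 ± 0.25 to 9.72 ± 0.19 (SD, n = 6 each). Their changes of 1.78, 1.78 and 1.69 all passed (limma adjusted p from 2.70e-10 to 4.32e-09) and are folds of 3.22 to 3.44. The FN1 transcript is spliced in several forms, but which part of it each probe set reads was not determined here. The excess over FN1 A, measured within each array, was 0.55 for B, 0.55 for C and 0.46 for D, and each was larger than the spread between arrays (exact two-sided permutation p = 0.00216, 0.00385 after adjustment over the 16 probe set pairs compared). FN1 C and D were designed from 1 source sequence, per the platform annotation, and are no independent pair. Whether splicing or the RNA ratio bears on the excess over FN1 A was not tested.

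TGFBI, a secreted protein induced by TGF-beta that binds collagen and integrins, went from the control level to above it. In 2D its only probe set ranged from 5.33 to 5.94 (median 5.58), and in 3D from 6.76 to 7.14 (median 7.01). It was above the control level on 1 of the 6 arrays in 2D and on all 6 in 3D, and the groups did not overlap. The change was 1.37 (SE 0.09, limma adjusted p = 5.08e-09), a fold of 2.59, and the fit with the RNA ratio gave 1.39 (SE 0.15, limma adjusted p = 6.41e-06). Since most 2D values lay at the control level, that fold rests on a 2D level which the arrays hardly resolve.

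FBLN1, fibulin 1, a glycoprotein found with fibronectin fibrils and in basement membranes, rose on 1 of its 5 probe sets. FBLN1 A ranged from 6.16 to 6.63 in 2D (median 6.39) and from 7.19 to 7.57 in 3D (median 7.31), with no overlap. The change was 0.94 (SE 0.08, limma adjusted p = 2.19e-07), a fold of 1.91, and the fit with the RNA ratio gave 1.23 (SE 0.10, limma adjusted p = 3.22e-07). The remaining probe sets, FBLN1 B to E, had changes between -0.05 and 0.03, none of which passed (limma adjusted p from 0.615 to 0.793). Their means were between 5.23 and 5.93 in either group, close to the control level for B, C and D and under it for E, and the groups overlapped on each. The 95% intervals of these changes reached no higher than 0.14. FBLN1 C was above the control level on all 6 arrays of each culture. FBLN1 B and D were above it on 5 of 6 arrays in 2D and on 6 of 6 in 3D, and E on 0 of 6 in both. Whether the low signal of FBLN1 B to E bears on their small changes was not tested. With the mean over all of its probe sets FBLN1 had a change of only 0.18 (SE 0.04, limma adjusted p = 0.00289), so the size of the FBLN1 rise rests on 1 probe set.

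THBS1, thrombospondin 1, a trimeric matricellular protein that can activate latent TGF-beta, had a small increase with an adjusted p just under the threshold. THBS1 A ranged from 13.63 to 13.99 in 2D (median 13.93) and from 13.91 to 14.15 in 3D (median 14.08). The groups overlapped, with 4 of the 6 arrays of 3D above all 2D arrays. It rose by 0.18 (SE 0.07, limma adjusted p = 0.0411), a fold of 1.13, and THBS1 B by 0.17 (SE 0.06, limma adjusted p = 0.0449). THBS1 C had a change of 0.27 (SE 0.16) that did not pass (limma adjusted p = 0.183).

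The THBS1 call did not hold under several alternatives. Leaving out 2D replicate 2, 5 or 6 or 3D replicate 1, 2, 3 or 4 ended the call of THBS1 A, with changes of 0.13 to 0.19 and limma adjusted p from 0.0527 to 0.0902. Array weights ended it too (0.15, limma adjusted p = 0.0519), as did dropping 2D replicate 6 together with 3D replicate 2 (0.12, limma adjusted p = 0.106). THBS1 B lost its call in the same settings and also without 2D replicate 1 (0.16, limma adjusted p = 0.0732). Holding the RNA ratio in the fit, THBS1 A had 0.11 (SE 0.11, limma adjusted p = 0.554), while THBS1 C turned to -0.48 (SE 0.09, limma adjusted p = 0.00180). On THBS1 C the lowest 3D array was replicate 2, at 8.01 where the 3D median was 8.69, and that array also had the lowest 5-prime to 3-prime ratio of its group (log2 -0.88). Without it THBS1 C had 0.40 (SE 0.13, limma adjusted p = 0.0210).

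The matricellular and basement membrane members TNC, SPARC and NID1 lay near the control level in both cultures. TNC, tenascin C, a glycoprotein of developing and healing tissue, ranged from 5.06 to 5.37 in 2D and from 5.17 to 5.63 in 3D, and it was above the control level on 0 of 6 and 1 of 6 arrays. Its change of 0.11 (SE 0.07) did not pass (limma adjusted p = 0.252, 95% interval from -0.05 to 0.26).

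SPARC, a collagen-binding matricellular protein also called osteonectin, had values of 5.60 to 6.03 in 2D (median 5.90) and 5.42 to 6.05 in 3D (median 5.69) on SPARC A. It was above the control level on 5 of 6 and on 4 of 6 arrays, and the groups overlapped. The change was -0.16 (SE 0.09, limma adjusted p = 0.171), and SPARC B had 0.02 (SE 0.09, limma adjusted p = 0.849). Without 3D replicate 2, the highest of its group, SPARC A passed as lower with -0.23 (SE 0.08, limma adjusted p = 0.0245). It also passed with array weights (-0.21, limma adjusted p = 0.0423) and when 2D replicate 6 and 3D replicate 2 were both dropped (-0.21, limma adjusted p = 0.0465).

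NID1, nidogen 1, the linker between laminin and collagen IV, had 5.55 ± 0.12 in 2D and 5.49 ± 0.15 in 3D on NID1 A, and 5.25 ± 0.12 and 5.24 ± 0.12 on NID1 B (SD, n = 6 each). NID1 A was above the control level on 1 array of 3D and none of 2D, and NID1 B on none of the 12. Their changes of -0.06 and -0.0074 did not pass (limma adjusted p = 0.504 and 0.940).

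The proteoglycans of the basement membrane and pericellular matrix were well above the control level on their representative probe sets. HSPG2, perlecan, whose heparan sulfate chains hold growth factors in the basement membrane, rose. HSPG2 A ranged from 10.92 to 11.14 in 2D (median 11.06) and from 11.28 to 11.50 in 3D (median 11.38), with no overlap. It rose by 0.32 (SE 0.05, limma adjusted p = 0.000149), a fold of 1.25, and HSPG2 B rose by 0.36 (SE 0.05, limma adjusted p = 5.23e-05), from 6.79 ± 0.10 to 7.16 ± 0.06 (SD, n = 6 each). Holding the RNA ratio in the fit, HSPG2 A had 0.42 (SE 0.08, limma adjusted p = 0.00121). HSPG2 C had 6.16 ± 0.09 and 6.09 ± 0.11 (SD, n = 6 each), and its change of -0.07 did not pass (limma adjusted p = 0.359). It changed less than HSPG2 A by 0.39 within the same arrays (exact two-sided permutation p = 0.00216, 0.00385 adjusted over 16 pairs).

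AGRN, agrin, a heparan sulfate proteoglycan of kidney basement membranes, was measured well above the control level on 2 of its 3 probe sets and did not pass on any. AGRN A ranged from 10.44 to 10.85 in 2D (median 10.68) and from 10.43 to 10.62 in 3D (median 10.51), so the 3D values lay within or just under the 2D range. Its change was -0.13 (SE 0.07, limma adjusted p = 0.143, 95% interval from -0.27 to 0.02). AGRN B and C had -0.11 each (limma adjusted p = 0.259 and 0.192), with C at or below the control level on all arrays. With quantile normalization AGRN A and B passed as lower (-0.17 and -0.18, limma adjusted p = 0.0387 and 0.0346), and with 2D replicate 6 and 3D replicate 2 both dropped so did AGRN C (-0.16, limma adjusted p = 0.0427).

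VCAN, versican, a large chondroitin sulfate proteoglycan that binds hyaluronan, did not pass on either probe set. VCAN A ranged from 9.56 to 10.15 in 2D (median 9.81) and from 9.67 to 10.06 in 3D (median 9.82), and its change was 0.0044 (SE 0.09, limma adjusted p = 0.972, 95% interval from -0.18 to 0.19). VCAN B went from 9.24 ± 0.26 to 9.49 ± 0.17 (SD, n = 6 each), a change of 0.25 (SE 0.11, limma adjusted p = 0.0809). VCAN B passed with the replicate number as a block (limma adjusted p = 0.0159), with array weights (0.0354), when 2D replicate 1 was left out (0.32, limma adjusted p = 0.0268) and when 3D replicate 2 was (0.29, limma adjusted p = 0.0479). Within arrays, B exceeded A in its change by 0.24 (SD of the difference 0.10 in 2D and 0.07 in 3D, n = 6 each, exact two-sided permutation p = 0.00216, 0.00385 adjusted over 16 pairs). The versican transcript is also spliced in several forms, and which of them VCAN A and B read was not determined. Whether splicing or the RNA ratio bears on the difference between VCAN A and B was not tested.

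**Figure D2:**
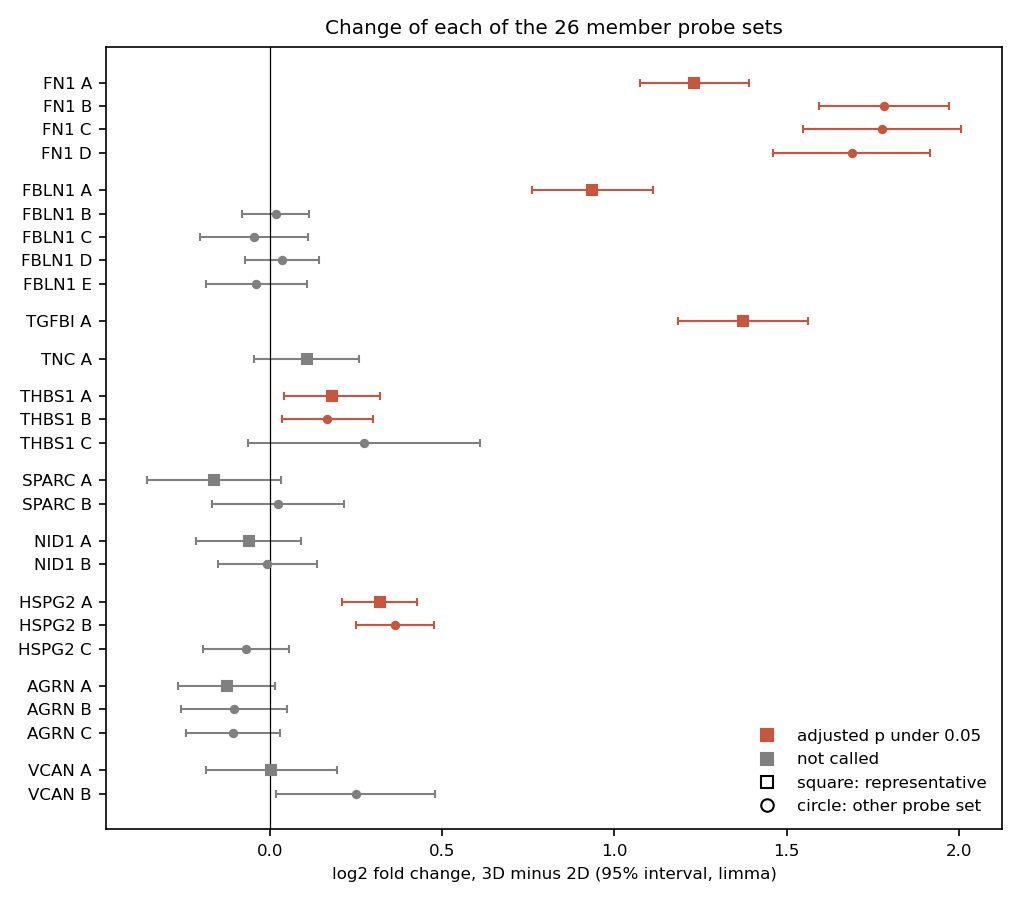
Log2 fold change, 3D minus 2D, of each of the 26 member probe sets with its 95% interval from limma; squares are representative probe sets, circles the others, and red marks an adjusted p under 0.05. All 4 FN1 probe sets lie at 1.23 or above, 1 of 5 FBLN1 probe sets stands apart at 0.94, and AGRN lies below 0 on all 3 without passing.

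Unequal change within a gene was read from the 10 of 16 probe set pairs in which both probe sets were above the control level on all 12 arrays, a limit set after the values were seen. The test took, on each array, the difference between a probe set and the representative of the same gene and compared these differences between the cultures. Of the 10 pairs, 6 passed, in FN1 (B, C and D), FBLN1 (C), HSPG2 (C) and VCAN (B), with p-values adjusted over all 16 pairs. An exact permutation p of 0.00216 is the smallest that 6 arrays against 6 can give, and these 6 pairs reached it. The remaining pairs, of THBS1, HSPG2 B and AGRN B, did not pass (exact two-sided permutation p from 0.504 to 0.740). FBLN1 C, with means of 5.91 in 2D and 5.87 in 3D, and HSPG2 C, with 6.16 and 6.09, lay only little above the control level of 5.71, and whether that bears on the difference was not tested. In FN1 and VCAN both probe sets of each pair lay well above it. The RNA ratio differed between the cultures (mean log2 -0.91 in 2D and -0.54 in 3D), and no pair was compared with that ratio held. Whether the RNA ratio bears on the unequal changes, those of FN1 and VCAN included, was therefore not tested.

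**Figure D3:**
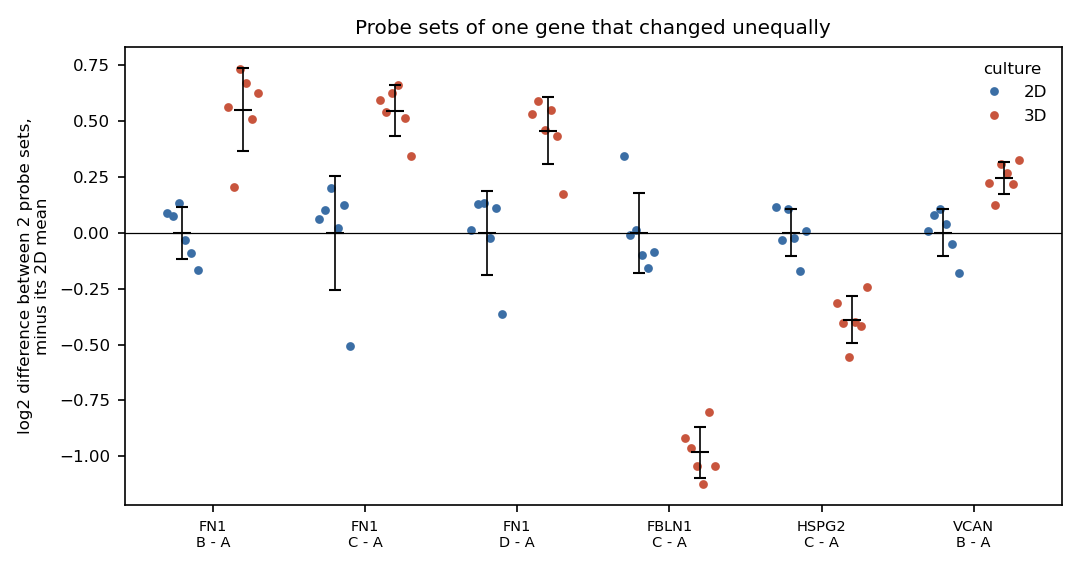
Log2 difference between a probe set and the representative of its gene on each array, after subtracting the 2D mean of that difference, for the 6 pairs that passed with both probe sets above the control level on all arrays; blue is 2D, red is 3D, and black marks give the mean and SD of 6 arrays. FN1 B, C and D gained 0.46 to 0.55 on A, FBLN1 C lost 0.98 while lying just above the control level, HSPG2 C lost 0.39 and VCAN B gained 0.24.

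Genes around the members were read from lists chosen by function. In the fit with the RNA ratio fewer of all genes passed, 12.6% as raised and 8.33% as lowered where 19.8% and 22.9% did without it, and the lists' counts from that fit are to be read against those shares. Among other glycoproteins of the matrix 8 rose and 8 fell of 47 measured, with a median change of -0.08. ECM1, a secreted matrix glycoprotein, rose by 1.82 (SE 0.10, limma adjusted p = 6.67e-10), LTBP1, which holds latent TGF-beta in the matrix, by 1.09 (SE 0.11, limma adjusted p = 7.37e-07) and the matricellular protein CCN1 by 0.78 (SE 0.17, limma adjusted p = 0.00230). In the fit with the RNA ratio 2 of this list rose and 4 fell, so the genes just named did not all pass there. Of 23 other proteoglycans, 2 rose and 8 fell, and 1 and 1 did so in the fit with the RNA ratio. Biglycan, BGN, rose by 0.98 (SE 0.07, limma adjusted p = 1.53e-08), while FMOD fell by 0.32 and SDC2, a syndecan, by 0.29. FMOD and SDC2 did not both pass with the RNA ratio held, since only 1 gene of the list fell there. FMOD was above the control level on 5 of 6 arrays in 2D and on 0 of 6 in 3D. DCN, GPC4 and GPC6, which also fell, were above it on 3, 2 and 1 of 6 arrays in 2D and on 0 of 6 in 3D.

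Of 21 measured cell surface receptors for the members, 12 rose and 3 fell, with a median change of 0.26, and in the fit with the RNA ratio 9 rose and 1 fell. CD44, the hyaluronan receptor, rose by 1.48 (SE 0.07, limma adjusted p = 9.94e-11), the integrin chain ITGA3 by 1.06 (SE 0.07, limma adjusted p = 3.42e-09) and ITGAV, the chain shared by several integrins that bind fibronectin, by 0.74 (SE 0.08, limma adjusted p = 1.28e-06). Enzymes that build or trim heparan and chondroitin sulfate chains had 7 raised and 3 lowered of 24, and in the fit with the RNA ratio 3 rose and 3 fell. The endosulfatase SULF2 rose by 1.25 (SE 0.06), CHSY1, which extends chondroitin chains, by 0.68 (SE 0.10) and the sulfotransferase CHST11 by 0.66 (SE 0.07). Enzymes that cut or crosslink matrix had 8 raised and 3 lowered of 19, and 5 and 0 in the fit with the RNA ratio. The protease HTRA1 rose by 1.20 (SE 0.05), and the metalloproteinases MMP13 and MMP9 rose by 3.58 (SE 0.12) and 3.24 (SE 0.08). MMP9 was above the control level on only 3 of 6 arrays in 2D, so the size of its rise rests on a 2D level that the arrays hardly resolve.

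**Figure D4:**
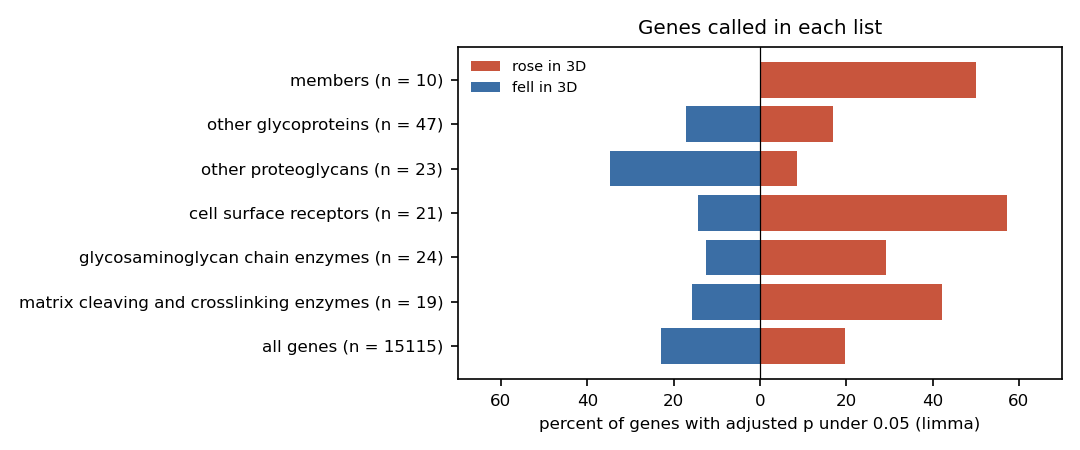
Percent of the measured genes of each list, and of all 15115 genes, that rose (red, to the right) or fell (blue, to the left) in 3D with a limma adjusted p under 0.05. The receptors have 57.1% raised and 14.3% lowered, the proteoglycans outside the 10 members 8.70% and 34.8%, and all genes 19.8% and 22.9%.

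Likeness to FN1 and TGFBI was read from deviations of each array from its group mean, which leaves out the difference between the cultures. Compared over the 12 arrays were 11582 genes above the average control level in both groups, with the members and genes with placeholder symbols left out. Among these, the highest Pearson correlations with FN1 were those of DLGAP5 (0.94), RACGAP1 (0.92) and TUBB2A (0.91). For TGFBI they were CTRL (0.88), PPP1R3D (0.87) and PRC1 (0.84). TGFBI itself was above the control level on only 1 of 6 arrays in 2D, so its deviations there rest on values that the arrays hardly resolve. These are the highest of many values over few arrays, and they are given as a description.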

How the data were processed

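The authors deposited linear intensity values, 1 for each of 43035 probe sets per array. GCRMA, a model-based background correction, is named without a version in the submitters' processing notes, and later scaling is not given in the sources used here. GCRMA can compress changes near the control level. Here log2(intensity + 1) was used with no further normalization or filter, so a fold is on that scale. The lowest deposited intensity was 15.2, so adding 1 understates changes of dim genes only slightly. The 111 control probe sets were left out. Groups came from sample titles, and culture was the only term in lmFit and eBayes of limma 3.58.1 (R 4.3.3), two-sided, with adjustment over 42924 probe sets. Permutation tests were exact over all 924 assignments of 6 of 12 arrays.

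Members, lists and tests were chosen with earlier results of these data known. All members are named, and of each list up to 3 of the genes that passed, by size of change; likeness names 3 genes each for FN1 and TGFBI. The marker genes were named after their values were seen. Probe sets ending in _s_at or _a_at, 17 of the 26, can bind several transcripts. Annotation gene identifiers matched RefSeq (assembly UU_Cfam_GSD_1.0) for 9 of 10 members, that of SPARC not. Alternatives were quantile normalization, median centring, a filter at log2 6, a pseudocount of 16, a trended robust variance, array weights, a replicate block, leaving out arrays, the RNA ratio as a covariate and the mean of probe sets. The number of arrays limits the precision.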

Additional observations from a re-analysis of the deposited data

Results flagged for a closer look

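On 4 of the 52 probe set and group combinations of the members, 1 array lay far from the other 5 by Dixon's criterion for 6 values; chance alone gives about 1 in 20. Of these, 3 were the same array and gene: 3D replicate 6 was the lowest of its group on FN1 A (12.52, next 12.61), FN1 C (9.48, next 9.76) and FN1 D (9.35, next 9.74). Without that array the FN1 changes were 1.25, 1.84 and 1.76. On FBLN1 D, 3D replicate 3 was lowest (5.74, next 5.86), and without it the change was 0.06.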

How the results depend on the processing

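The calls of FN1, TGFBI, FBLN1 and HSPG2 kept their direction and side of the threshold under all 22 alternatives run for each, with changes of 1.18 to 1.62, 1.15 to 1.44, 0.18 to 1.23 and 0.20 to 0.42. Of the members, 0 genes and 0 probe sets fell in the reported fit, but 1 gene and 2 probe sets did with quantile normalization, 1 and 1 with array weights, 1 and 2 with 2D replicate 6 and 3D replicate 2 both dropped (an alternative chosen after seeing the data), and 1 probe set (THBS1 C) with the RNA ratio as a covariate. When single arrays were left out, 4 to 5 genes and 8 to 10 probe sets rose, and 0 to 1 of each fell. Of the changes near 0, some turned sign without being called: NID1 with quantile normalization (0.0093), and VCAN with quantile normalization (-0.065), the RNA ratio as a covariate (-0.12), without both arrays (-0.034) and when single arrays were left out (-0.048 to 0.071). The cause was not tested. With the replicate number as a block, 5 genes and 11 probe sets rose, VCAN B being the only one added. Same-numbered arrays deviated together unevenly (correlations of 0.0008 to 0.36 over the 6 numbers), and 4 of 6 arrays of 2D correlated best with their own number. The labels do not say that equal numbers are pairs, and for that reason the reported fit has no replicate block. Whether the numbers are pairs was not settled here. Signal limits TNC, SPARC and NID1, which lay near the control level.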
